A study of Mus musculus with 4 samples.

Results

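The genes described here are 6 enzyme genes of itaconate, arginine, bicarbonate and prostaglandin metabolism: Acod1, Nos2, Arg1, Arg2, Car2 and Ptgs2. They were chosen by name with earlier results of these arrays in view, and every probe set annotated to them was taken, which gave 8 of the 12654 probe sets and 6 of the 8220 genes measured. Acod1 and Arg2 are each read by a pair of probe sets and the other 4 genes by 1 each. All values below are therefore descriptions of these arrays.

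The study followed mouse dendritic cells, which present antigen to T cells, as they differentiated in culture from progenitors. Total RNA was measured on 1 array in each of 4 groups: dendritic cell progenitors from bone marrow, cells differentiated for 7 days, cells differentiated for 10 days, and cells differentiated for 10 days that also had tumour necrosis factor (TNF) for 16 hours. According to the labels all differentiated cells came from bone marrow progenitors, and for the TNF group these had been amplified in vitro. The labels used here give no genotype, strain, age, sex or number of cultures, and there is no replicate, so no p-value is given and each difference is one between 2 arrays.

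The genes encode enzymes of different parts of metabolism. Acod1 encodes the mitochondrial enzyme that makes itaconate from the citrate cycle intermediate cis-aconitate. Nos2, the inducible nitric oxide synthase, and the arginases compete for arginine: Nos2 yields nitric oxide and citrulline, while Arg1 in the cytosol and Arg2 in mitochondria yield ornithine and urea. Car2 encodes a cytosolic carbonic anhydrase, which interconverts carbon dioxide and bicarbonate, and Ptgs2 encodes the inducible cyclooxygenase that starts prostaglandin synthesis.

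Levels are intensity units, scaled so that the 75th percentile is the same on all arrays. Log2 ratios and counts of genes at least 2-fold apart use a lower floor of 105 units, the 40th percentile of the scaled intensities. Folds of single genes use a higher floor of 428 units, their 60th percentile: a fold is written "at least" where the dimmer array lay under 428 units, and no fold is given where both did. Over the whole series, 22.8% to 24.3% of probe sets on an array lay below 0, and 3888 to 3991 genes on an array exceeded 428 units. The only available error comes from genes read by more than 1 probe set. The SD of the difference in log2 ratio between the brightest 2 was 0.83 for day 7 over progenitor (671 genes), 0.85 for day 10 over day 7 (663 genes), 1.09 for day 10 over progenitor (632 genes), 0.73 for TNF over day 10 (666 genes) and 1.07 for TNF over progenitor (648 genes). It does not cover differences between cultures. As the SD of a difference between 2 ratios, it is wider than the scatter of a single ratio if both scatter alike and independently. A single ratio within it is therefore not shown to be absent. Bacterial control transcripts, which do not come from the cells, had median log2 ratios of -0.34, 1.5, 1.18, -0.50 and 0.65 in these 5 comparisons, over 9 probe sets each.

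The dendritic cell label was checked against 14 markers listed for it. Of these, 3 exceeded 428 units in progenitors and 13 on each of the 3 other arrays. The marker that did so on no array was Zbtb46, a transcription factor gene named after its values were seen. Its single probe set read 9 units in progenitors, 9 at day 7, 2 at day 10 and 77 with TNF. The integrin gene Itgax, which encodes CD11c, stood at 105 units in progenitors, 6188 at day 7, 21075 at day 10 and 29065 with TNF. Flt3, a cytokine receptor gene of dendritic cells and their progenitors, was named after its values were seen. The probe set used for it went the other way, at 1972, 805, 517 and 614 units on these arrays in that order. A second Flt3 probe set did not share this fall, at 517, 442, 1032 and 721 units. No marker list was examined for the progenitor label. All 15 granulocyte markers exceeded 428 units at day 7, and 12 did at day 10 and 8 with TNF.

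Of the 6 enzyme genes, 3 exceeded 428 units on at least 1 array: Car2, Arg2 and Acod1. Nos2 lay between both floors on the 3 arrays of differentiated cells, and Arg1 and Ptgs2 lay under 105 units on all 4. The 3 genes that were readable did not share a pattern: Acod1 exceeded 428 units with TNF and on no other array, Car2 was measured on every array and brightest with TNF, and Arg2 was brightest at day 7.

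**Figure D1:**
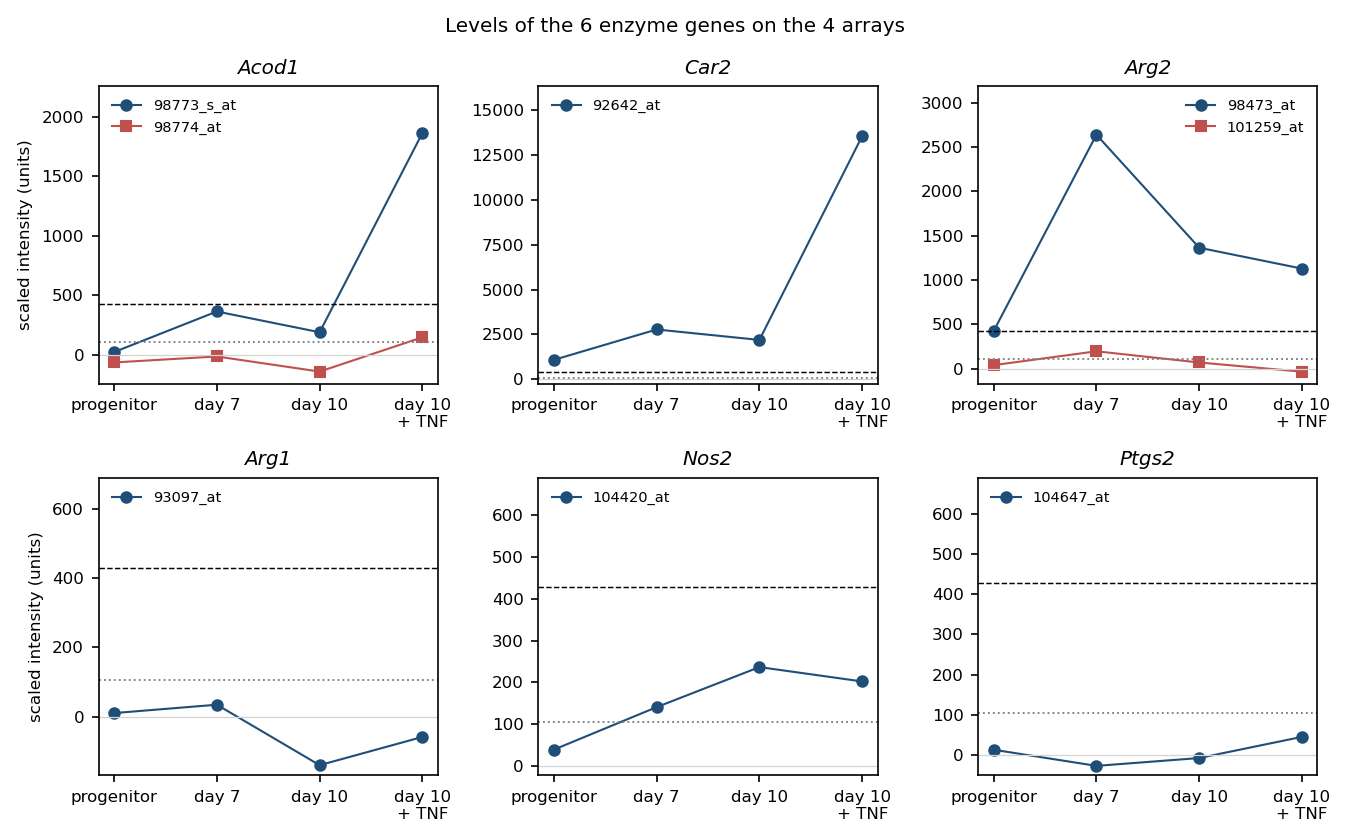
Scaled intensity (units, linear axis) of each probe set of the 6 genes on the 4 arrays, 1 array per group; lines join the values of 1 probe set, the dashed line marks 428 units and the dotted line 105 units. Acod1 reached 1862 units and Car2 13531 units with TNF, Arg2 peaked at 2637 units at day 7, and Arg1, Nos2 and Ptgs2 stayed under the dashed line.

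Acod1, the itaconate enzyme gene, was read by its brighter probe set at 22 units in progenitors, 363 at day 7, 188 at day 10 and 1862 at day 10 with TNF. The TNF array stood apart from the other 3, all of which lay under 428 units. With TNF the level was at least 4.35-fold higher than at day 10, and the ratio computed with the lower floor was 3.31 on the log2 scale, rank 8 of 6151 genes from the highest. With both arrays floored at 428 units Acod1 was rank 13 of 4308. In rank within its own array, the probe set moved to the 82.7th percentile with TNF, against the 47.4th at day 10. The second probe set read 146 units with TNF, against -142 at day 10, -15 at day 7 and -65 in progenitors. It thus also had its highest value with TNF, but its log2 ratio to day 10 was only 0.48 and it never came near 428 units. The size of the Acod1 difference therefore rests on 1 probe set, the brighter. The name of that brighter probe set marks its probes as possibly shared between transcripts, while the name of the second does not. The day 7 value of 363 units was above both the day 10 and the progenitor values, with a log2 ratio to progenitor of 1.79 at the lower floor. No fold is given for it because both arrays lay under 428 units.

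The start of the Acod1 gene is shown because Acod1 was at least 4.35-fold higher with TNF, a signal known to act through NF-kB. The 250 bases before the annotated start, from RefSeq on GRCm38.p6, chr14:103046762-103047011, plus strand, are printed with matches to the kappa-B motif GGAATTTCC and the TATA box TATAAA in capitals.

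Acod1 promoter: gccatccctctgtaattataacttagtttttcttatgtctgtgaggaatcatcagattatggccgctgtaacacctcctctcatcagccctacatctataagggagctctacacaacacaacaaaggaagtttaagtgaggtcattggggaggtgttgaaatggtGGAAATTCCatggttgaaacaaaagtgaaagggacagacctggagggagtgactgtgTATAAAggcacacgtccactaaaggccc

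The kappa-B match, the reverse complement of the motif as written, begins 85 bases before the start and the TATA box 28 bases before it. Both strands were searched, with motifs chosen after the sequence had been seen. The kappa-B letters occur in 0.286% of the 32851 promoter windows of 250 bases in that table, and the TATA letters in 12.4%. The Ets core GGAAGT also occurs once, 125 bases before the start, as in 19.7% of windows, and the AP-1 motif TGANTCA, found in 6.75% of windows, does not occur. The motifs do not overlap. Of the 6 genes, 2 had an entry in the promoter table. The other was Ptgs2, whose window held none of these 4 motifs as spelled. Because the motifs were chosen with the printed sequence in view, the shares of windows do not measure how unusual its matches are. Other spellings of the motifs were not counted. A match describes letters and was not tested as a binding site.

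Car2, the cytosolic carbonic anhydrase gene, was read by a single probe set. It read 1087 units in progenitors, 2778 at day 7, 2196 at day 10 and 13531 at day 10 with TNF. All 4 values were far above 428 units, and the TNF array stood alone. With TNF Car2 was 6.16-fold higher than at day 10 (log2 ratio 2.62). This was rank 4 of 4308 genes when both arrays were floored at 428 units, and rank 23 of 6151 with the lower floor. Its probe set moved to the 97.6th percentile of its array, against the 84.7th at day 10. Against progenitors the TNF array was 12.4-fold higher. Differentiation alone went with a smaller difference, of 2.55-fold at day 7 over progenitor. The day 10 and day 7 arrays differed by a log2 ratio of -0.34, less than the disagreement between probe sets (SD 0.85). The day 10 level was 2.02-fold above progenitor, on the edge of the 2-fold rule, and quantile normalization put this log2 ratio at 0.999. Before that normalization it was 1.01, within the probe-set SD of 1.09, and bacterial controls differed by 1.18 in the same direction. Car2 was thus brightest with TNF and higher at day 7 than in progenitors. Day 10 differed from neither day 7 nor progenitors by more than the probe-set SD, a yardstick wider than the scatter of a single ratio.

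Arg2, the mitochondrial arginase gene, followed a different course. Its brighter probe set read 425 units in progenitors, 2637 at day 7, 1364 at day 10 and 1128 at day 10 with TNF. The progenitor value was just under the higher floor and the day 7 value was the highest. At day 7 Arg2 was at least 6.16-fold higher than in progenitors. This was rank 49 of 4311 genes with both arrays floored at 428 units, and rank 112 of 5957 with the lower floor. At day 10 it was 1.93-fold lower than at day 7 (log2 ratio -0.95), just short of the 2-fold rule and slightly past the probe-set SD of 0.85, while the bacterial controls differed the other way by 1.5. With TNF it was 1.21-fold lower than at day 10, a log2 ratio of -0.27 that lay within the probe-set SD of 0.73. The dimmer probe set also peaked at day 7, at 197 units, against 41 in progenitors, and read 71 at day 10 and -33 with TNF. That probe set never exceeded 428 units, so it gives an order with no fold.

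Nos2, the inducible nitric oxide synthase gene, read 39 units in progenitors, 141 at day 7, 237 at day 10 and 202 at day 10 with TNF. At the lower floor its log2 ratio was 1.18 for day 10 over progenitor and -0.23 for TNF over day 10, but every value lay under 428 units. TNF and day 10 therefore differed by less than the probe-set SD, and no fold can be given. Arg1, the cytosolic arginase gene, read 11 units in progenitors, 35 at day 7, -140 at day 10 and -58 with TNF. Ptgs2, the inducible cyclooxygenase gene, read 13, -27, -8 and 45 units on the same arrays in that order. Values below 105 units have no order on these arrays, so neither Arg1 nor Ptgs2 was detectable under any of the 4 conditions. For both genes this rests on a single probe set, and no array in the series serves as a positive control for it.

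Counted together, the 6 genes held 4 that exceeded 105 units on at least 1 array of a comparison. At day 7, 3 of these 4 (Acod1, Arg2 and Car2) were at least 2-fold higher than in progenitors, where 13.4% of 5957 genes were, and 0 were lower, where 11.9% were. At day 10 against day 7 0 of 4 were higher and 0 lower, where 11.2% and 8.44% of 6123 genes were. At day 10 against progenitor 3 of 4 were higher (Nos2, Arg2 and Car2), where 20.4% of 6198 genes were, and 0 lower, where 16.8% were. With TNF against day 10 2 of 4 were higher (Acod1 and Car2), where 8.84% of 6151 genes were, and 0 lower, where 8.76% were. With TNF against progenitor 3 of 4 were higher (Acod1, Arg2 and Car2), where 21.4% of 6186 genes were, and 0 lower, where 18.5% were. The median log2 ratio of the 4 genes with TNF against day 10 was 1.2, against -0.04 for all genes tested. Because the genes were chosen for their behaviour on these arrays, nothing is read from these counts. The comparisons share arrays, so they are not independent of one another.

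**Figure D2:**
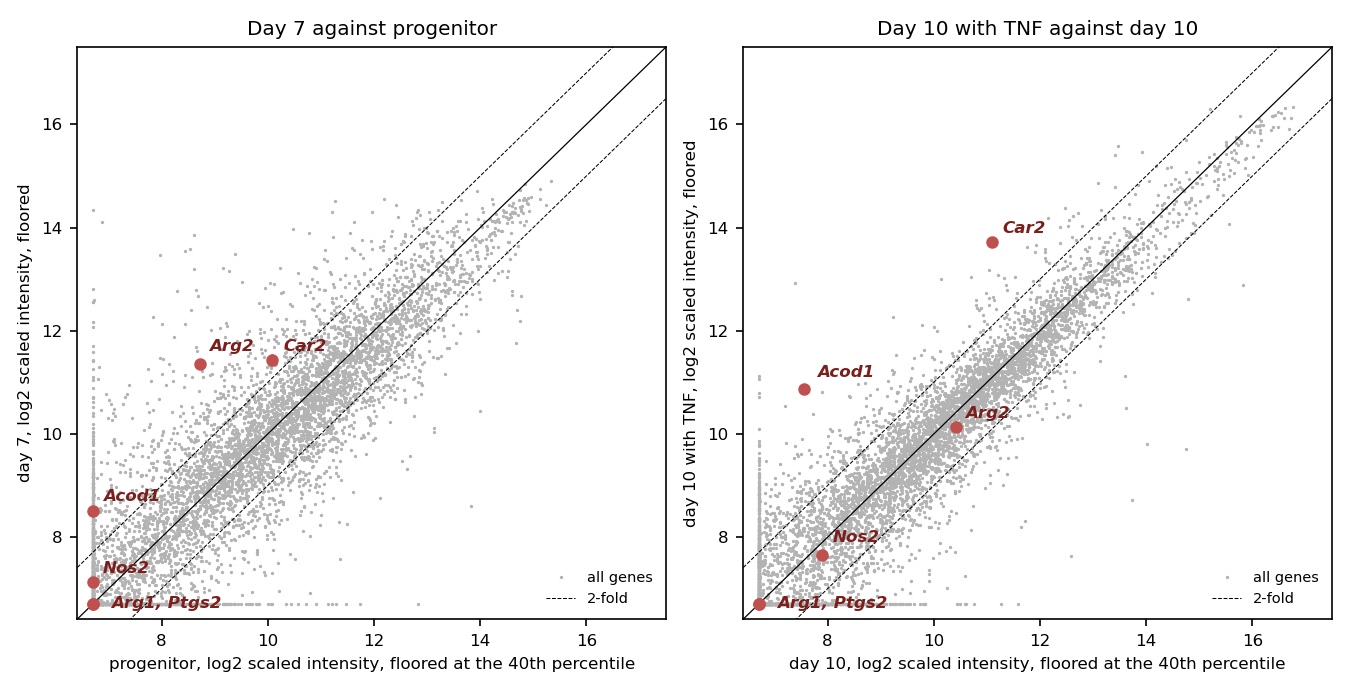
Log2 scaled intensity of every gene (grey points) and of the 6 enzyme genes (red points) on 2 arrays, floored at 105 units; the left panel sets day 7 (vertical axis) against progenitor, the right panel day 10 with TNF (vertical axis) against day 10, the solid line marks equality and the dashed lines a 2-fold difference. Car2 and Acod1 lie above the upper dashed line in the right panel while Arg2 and Nos2 lie within the dashed lines, and Arg1 and Ptgs2 sit at the floor in both panels.

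Genes with the most similar course were sought among 2115 other genes that exceeded 428 units on at least 1 array and ranged over at least 1 log2 unit. The measure was the Euclidean distance between log2 profiles over the 4 arrays, each centred on its own mean and floored at 428 units. For Acod1 the nearest were Clec4e (distance 0.04 log2 units), which encodes the lectin receptor Mincle, Vldlr (0.06), a lipoprotein receptor gene, and Rabgap1l (0.12). Clec4e read 1799 units with TNF, against 236 at day 10. Of the 3 probe sets of Vldlr only the one used here followed this course, and the other 2 read -127 and 14 units with TNF. As the floor makes 3 of the 4 values equal, 111 genes lay within 1 log2 unit of Acod1, so the closeness is not specific.

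For Car2 the nearest genes were Adcy6 (distance 0.31 log2 units), an adenylate cyclase gene, Ets2 (0.63), which encodes an Ets family transcription factor, and Procr (0.75), the endothelial protein C receptor gene, with 23 genes within 1 log2 unit. Adcy6 read 4419 units with TNF, against 878 at day 10. For Arg2 they were Ap5s1 (0.41), Pald1 (0.53) and Otulinl (0.54), with 68 genes within 1 log2 unit. Pald1 read 2530 units at day 7, against 113 in progenitors. A second probe set of Otulinl peaked at day 10, at 3607 units, and not at day 7, at 2591. With 4 arrays these distances are a description.

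**Figure D3:**
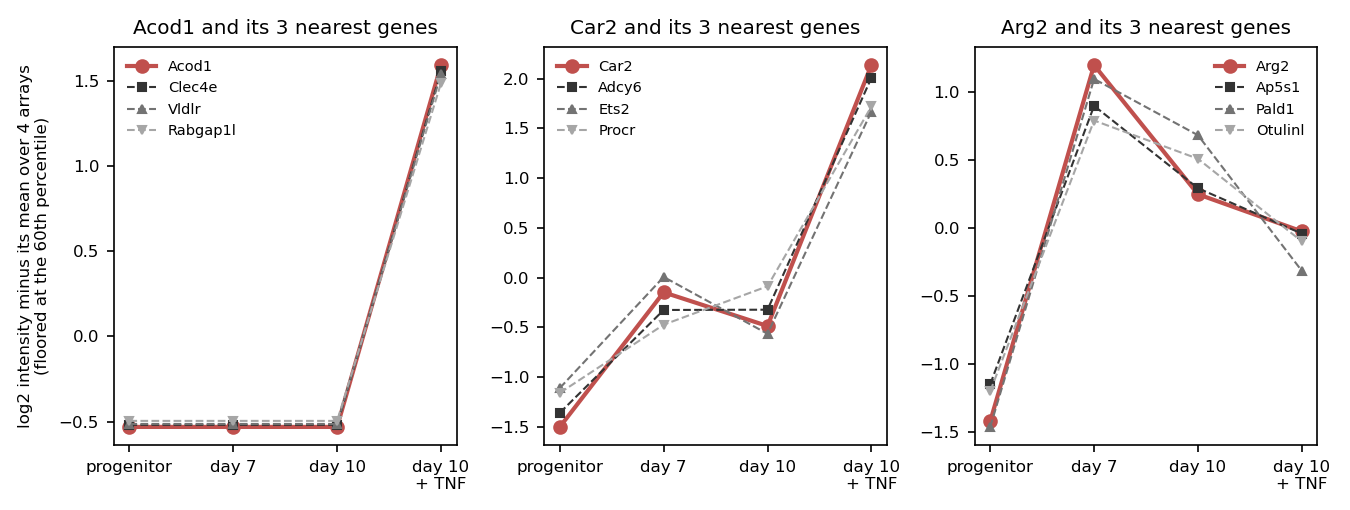
Log2 intensity minus its mean over the 4 arrays (vertical axis, floored at 428 units) for Acod1, Car2 and Arg2 (red, solid) and the 3 genes nearest to each (grey, dashed), by array. Acod1 and its neighbours leave the floor with TNF alone, Car2 and its neighbours are lowest in progenitors and highest with TNF, and Arg2 and its neighbours are highest at day 7.

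The arginine pathway around Nos2 and the arginases was read through a list of 38 transport, urea cycle, polyamine, creatine and cofactor genes, of which 27 were measured. At day 7, 5 of the 22 that exceeded 105 units were at least 2-fold higher than in progenitors and 2 were lower, where 13.4% and 11.9% of all genes were, with a median log2 ratio of 0.19, against -0.04 for all genes. Slc7a2, which encodes a cationic amino acid transporter that brings arginine into cells, read -4 units in progenitors, 1033 at day 7, 6393 at day 10 and 8338 with TNF. It was at least 14.9-fold higher at day 10 than in progenitors and 6.19-fold higher at day 10 than at day 7, and TNF over day 10 was 1.3-fold. The transporter thus stood high on both day 10 arrays, where Nos2 and Arg1 were not above 428 units. Arg2 was above that floor on both, at 1364 units at day 10 and 1128 with TNF. Slc7a7, a subunit gene of another amino acid transporter, was at least 1.77-fold higher at day 10 than at day 7. Over day 10 against progenitor 8 of 21 list genes were higher and 2 lower, where 20.4% and 16.8% of all genes were.

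With TNF against day 10, 2 of 20 arginine list genes were higher and 3 lower, where 8.84% and 8.76% of all genes were, so the share of higher genes was near that of all genes. The median log2 ratio was 0.12. The higher ones were Ass1 and Spr. Ass1 encodes argininosuccinate synthase, which starts the recycling of citrulline to arginine, and read 824 units in progenitors, 2230 at day 7, 2093 at day 10 and 5814 with TNF. It was 2.78-fold higher with TNF than at day 10 and, like Car2, had its highest value on the TNF array. Spr encodes sepiapterin reductase, which completes the synthesis of tetrahydrobiopterin, the cofactor of nitric oxide synthases, and was 2.82-fold higher, at 1780 units with TNF against 630 at day 10. Gch1, the first enzyme gene of that cofactor pathway, read 138 units in progenitors, 957 at day 7, 547 at day 10 and 952 with TNF. It was at least 2.23-fold higher at day 7 than in progenitors, and its log2 ratio of 0.80 for TNF over day 10 did not reach 2-fold. Pts, the enzyme gene between Gch1 and Spr in that pathway, was chosen after its values were seen and lay between 91 and 111 units on the 4 arrays. Asl, the partner of Ass1 in the cycle, also chosen after its values were seen, read 1384 units with TNF against 821 at day 10, short of 2-fold. Nos1 and Nos3, the other nitric oxide synthase genes, were under 105 units on every array, and so was Slc7a1, another cationic amino acid transporter gene. All 3 were named after their values were seen.

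The genes of this list that were lower include Srm, Gatm, Gamt and Azin1. Srm, which encodes spermidine synthase, read 5408 units in progenitors, 1627 at day 7, 1238 at day 10 and 926 with TNF, by a probe set whose name marks it as shared within a gene family. It was 3.32-fold lower at day 7 than in progenitors. Gatm, which encodes the first enzyme of creatine synthesis from arginine, was at least 4.41-fold lower at day 7, at 398 units against 1889 in progenitors. Gamt, the next creatine enzyme gene, was at least 1.71-fold lower with TNF, at 255 units against 734 at day 10, and Azin1, which encodes an antizyme inhibitor, was 2.16-fold lower, at 1886 against 4080. Odc1, the ornithine decarboxylase gene and named after its values were seen, did not exceed 428 units on any array. Sat1, which encodes an enzyme of polyamine breakdown, and Ckb, a creatine kinase gene, both named after their values were seen, went the other way: Sat1 was 3.09-fold higher at day 10, at 28729 units against 9290 in progenitors, with a log2 ratio of 1.63, or 1.11 after quantile normalization, and Ckb read 1205 units against 394.

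Genes of the citrate cycle, which supplies the substrate of the Acod1 enzyme, formed a list of 31, of which 28 were measured and 23 exceeded 105 units. With TNF against day 10, 1 was at least 2-fold higher and 2 were lower, where 8.84% and 8.76% of all genes were, with a median log2 ratio of 0.08. Idh2, which encodes a mitochondrial isocitrate dehydrogenase, read 4332 units in progenitors, 1917 at day 7, 2721 at day 10 and 1000 with TNF. It was 2.72-fold lower with TNF than at day 10. The other isocitrate dehydrogenase genes measured were named after their values were seen. Idh1 and Idh3b were under 105 units on every array. Idh3a read 553 units with TNF against 279 at day 10, and Idh3g 2541 against 2827, so neither shared the fall of Idh2 past 2-fold. Slc25a10, the mitochondrial dicarboxylate carrier gene, was 2.67-fold higher, at 1154 units against 432. At day 10 against progenitor 4 of 23 were lower and 0 higher, and the median log2 ratio was -0.55; 16.8% of all genes were lower in this comparison. The lower ones included Dld, 2.37-fold, and the malate dehydrogenase gene Mdh2, 2.16-fold. The median over all genes in that comparison was 0.07.

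Other carbonic anhydrase and bicarbonate genes, 23 in the list and 13 measured, were set beside Car2. Car4 encodes a carbonic anhydrase anchored to the outer cell membrane and was the only other measured carbonic anhydrase gene above 428 units on any array. It read 620 units in progenitors, 2627 at day 7, 6193 at day 10 and 3532 with TNF. Car4 was 4.24-fold higher at day 7 than in progenitors and 2.36-fold higher at day 10 than at day 7, whereas TNF over day 10 gave a log2 ratio of -0.81, against 2.62 for Car2. The carbonic anhydrase genes thus had their highest values on different arrays. No interaction could be tested with 1 array per group. The 7 others measured, Car1, Car3, Car5a, Car6, Car8, Car12 and Car14, ranged from -339 to 265 units. Slc4a2, which encodes an anion exchanger that carries bicarbonate and was named after its values were seen, read 1421 units with TNF and 1433 at day 10, and Slc4a3, of the same family, was at least 2.02-fold higher at day 10 than at day 7.

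The prostaglandin and leukotriene list of 40 genes, 28 of them measured, surrounds Ptgs2. With TNF against day 10, 3 of 21 were higher and 5 lower, where 8.84% and 8.76% of all genes were, with a median log2 ratio of -0.36. Ptger4, a prostaglandin E receptor gene, read -16 units in progenitors, 1478 at day 7, 1782 at day 10 and 5788 with TNF, 3.25-fold higher with TNF than at day 10. A receptor for a product of the pathway was therefore bright on the array where Ptgs2 itself read 45 units. Ptgir, the prostacyclin receptor gene, was 7.45-fold higher at day 10 than in progenitors, at 3301 against 443 units. Ltc4s, the leukotriene C synthase gene, was 5.05-fold higher at day 7 than in progenitors, at 4063 against 804 units. Ltb4r1, a leukotriene B receptor gene, was 3.97-fold lower with TNF, at 1284 against 5101 units at day 10. Ptges2, a prostaglandin E synthase gene, read 281 units in progenitors, 515 at day 7, 9 at day 10 and 794 with TNF. It was at least 1.85-fold higher with TNF than at day 10, the array where it was dimmest. The inducible prostaglandin E synthase gene Ptges, named after its values were seen, did not exceed 428 units on any array.

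**Figure D4:**
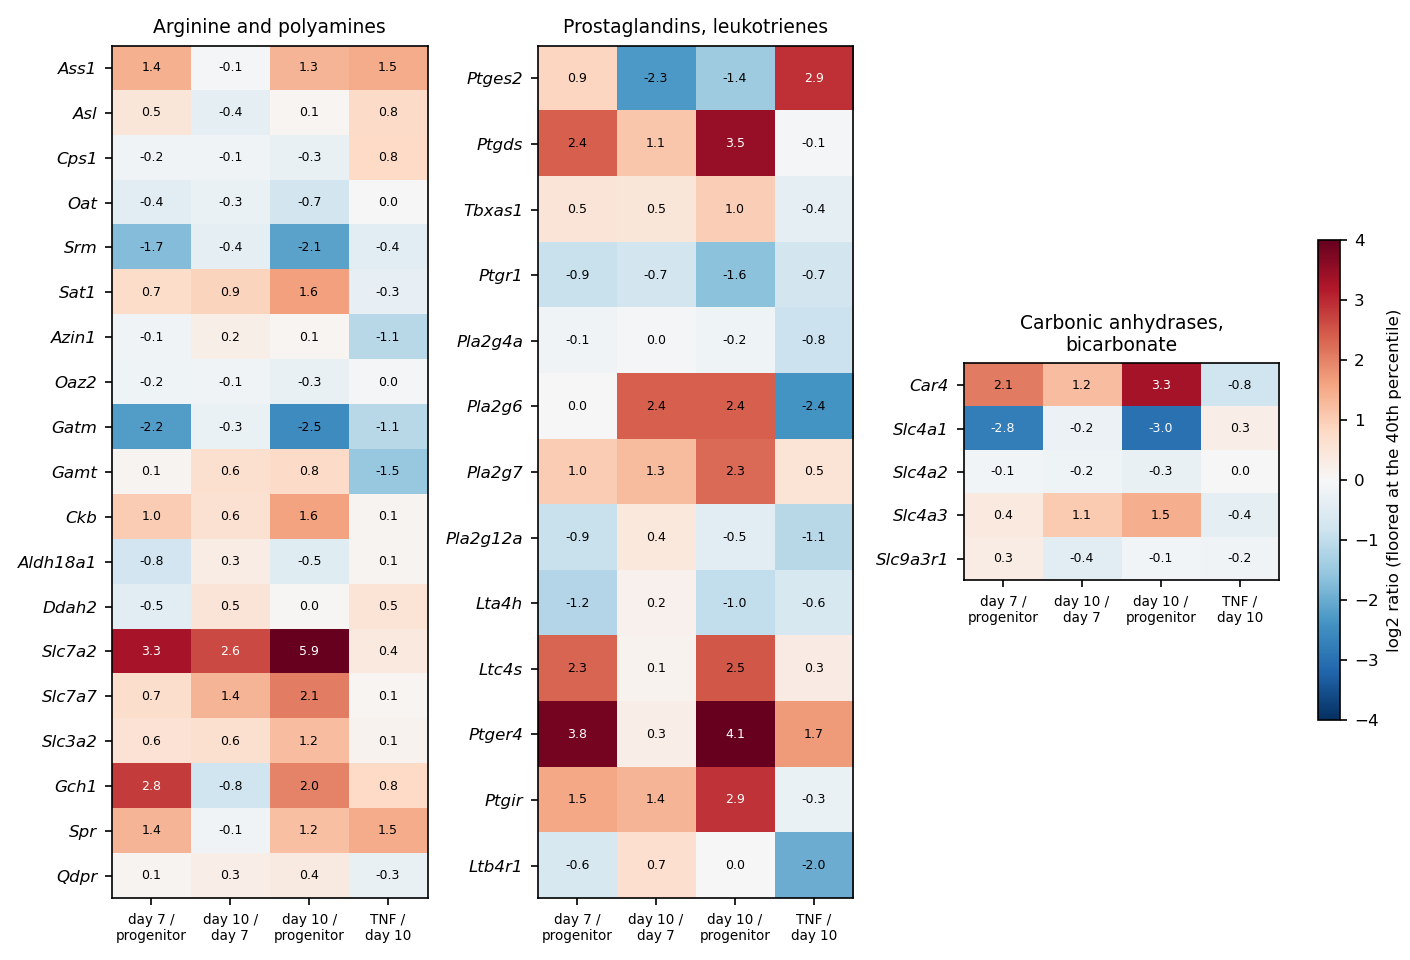
Log2 ratios (colour and printed value, floored at 105 units; colours saturate at 4 and -4) of list genes that exceeded 428 units on at least 1 array, for 4 comparisons in columns: arginine and polyamine genes, prostaglandin and leukotriene genes, and carbonic anhydrase and bicarbonate genes. Slc7a2 and Ptger4 have the highest ratios for day 10 over progenitor, at 5.93 and 4.09, and Ass1 and Spr are at 1.47 and 1.5 with TNF over day 10.

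Regulators known to act on the inducible enzymes were listed as 32 genes, 28 of them measured. With TNF against day 10, 5 of 27 were at least 2-fold higher and 4 lower, where 8.84% and 8.76% of all genes were. Relb and Nfkbia, an NF-kB subunit gene and an NF-kB inhibitor gene, were 2.87-fold and 3.41-fold higher, and second probe sets gave log2 ratios of 1.08 and 2.34 in the same direction. Junb, an AP-1 subunit gene, was 8.25-fold higher by a probe set that reached 4931 units, while its other probe set gave a log2 ratio of 0.71. The nuclear receptor gene Pparg was at least 2.55-fold lower. At day 7 against progenitor 7 of 23 were higher and 1 lower, where 13.4% and 11.9% of all genes were, with Irf8, a myeloid transcription factor gene, 6.43-fold higher.

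Markers of other cells moved between these arrays as well. Of 15 granulocyte markers 10 were at least 2-fold lower with TNF than at day 10 and 0 higher, where 8.76% and 8.84% of all genes were. Their summed level, with values below 0 set to 0, was 229978 units in progenitors, 142910 at day 7, 167213 at day 10 and 21011 with TNF. Macrophage markers summed to 23207, 87900, 216409 and 159475 units on these arrays in that order, and 11 of 14 exceeded 428 units at day 7, at day 10 and with TNF. The part of either in the enzyme values was not tested. Mast cell, basophil and eosinophil markers summed to 8928, 13379, 17147 and 10315 units, and erythroid markers, relevant because Car2 is also a red cell gene, to 12948, 6963, 5425 and 7146 units. Within the erythroid list Gata1, Epor, Alas2 and Car1 were at or under 105 units on every array, while Klf1 read 1016, 1292, 1237 and 1506 units. These 5 genes were named after their values were seen. The transferrin receptor gene Tfrc, which other dividing cells also use, made up most of the sum and read 4727 units with TNF against 3566 at day 10, and Hba-a1 read 582 against 327. The part of erythroid, mast cell, basophil or eosinophil RNA in the Car2 values was not tested. Lymphoid markers had 2 of 11 above 428 units on each array, and stromal and endothelial markers at most 1 of 12. In cell mixtures like these, fewer cells of a type and less RNA per cell cannot be told apart.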

How the data were processed

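The table the authors deposited gives 1 linear intensity per probe set and array, from an Affymetrix mouse expression array. Which software, background correction and detection calls were used is not stated in the labels. The deposited intensities show that a background had been subtracted, since many lie below 0, and that arrays had been matched in brightness: with the top and bottom 2% left out, the mean is 1000 units on each. Genes were assigned from the platform's annotation table, where 10298 probe sets have 1 symbol, 363 several and 1993 none, and 10279 symbols were updated by Entrez gene number. A gene is read by its probe set with the highest mean, which left 8220 genes without the 66 control probe sets.

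Arrays were scaled to a common 75th percentile (factors 0.962 to 1.05), floored and converted to log2 with pandas 2.3.3 and numpy 2.4.6. The calling of folds was tested on simulated data. The members, 7 pathway lists and 7 marker lists were chosen with earlier results of these data known. Named were all members, 3 genes nearest to each member that ranged over 1 log2 unit, and per list and comparison up to 4 genes with the largest ratios past 2-fold; others are marked. The number of arrays limits the precision.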

Additional observations from a re-analysis of the deposited data

How the results depend on the processing

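No paired analysis was possible because each group has 1 array. Every difference thus rests on 2 arrays, and signal over background limits Nos2, Arg1, Ptgs2 and the second probe sets of Acod1 and Arg2. Of 180 member log2 ratios recomputed under 6 alternatives, 161 moved by less than the probe-set SD and 19 moved by more, and 10 of the 19 belong to Acod1. A change of sign was counted only for main log2 ratios of at least 1 in either direction, and 0 of those changed sign. For TNF over day 10 Acod1 was 3.31, or 2.12 with the floor at the 60th percentile and 1.89 as a mean over probe sets, and Arg2 at day 7 over progenitor was 2.63, or 1.77 as that mean. Of the counts of enzyme genes, those higher at day 10 over progenitor fell to 1 (Arg2) under a 3-fold rule, and with the floor at the 25th percentile, 7.89 units, those higher at day 7 over progenitor and with TNF over progenitor were 5 each. Those lower at day 10 over day 7 were 2 with no scaling beyond the authors' own, 1 after quantile normalization and 1 with that floor, against 0. Counts over all genes moved with the floor and the fold by construction. Higher and lower were 453 and 419 with the 60th percentile floor, 390 and 264 under the 3-fold rule and 1343 and 1292 with the 25th percentile floor for day 7 over progenitor, against 796 and 709. For day 10 over day 7 they were 314 and 201, 288 and 195, and 1271 and 1125, against 686 and 517. For day 10 over progenitor they were 771 and 660, 711 and 494, and 1698 lower with the 25th percentile floor, against 1264 and 1043. The balance of higher to lower turned with the scaling: day 10 over day 7 gave 578 and 584 after quantile normalization and 581 and 642 without added scaling, day 10 over progenitor 1108 and 1169, and 1117 and 1193, and TNF over progenitor 1192 and 1251, and 1219 and 1261. For TNF over day 10 they were 203 and 222, 177 and 177, and 1169 and 1156, against 544 and 539. For TNF over progenitor 789 higher with the 60th percentile floor, 751 and 605 under the 3-fold rule and 1753 lower with the 25th percentile floor stood against 1323 and 1144.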

Other observations

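Arg1 is commonly read together with other genes of alternatively activated mouse macrophages, a state induced by interleukin-4. Of 13 such genes 8 were measured, and at day 7 against progenitor 5 were at least 2-fold higher and 1 lower, where 13.4% and 11.9% of all genes were, although Arg1 was under 105 units on every array. Mrc1, the mannose receptor gene, was at least 16.4-fold higher at day 7, and Ccl17 and Ccl22, chemokine genes also bright in mature dendritic cells, at least 14.1-fold and 21.8-fold. Fn1 went the other way and was at least 34.1-fold lower, at 390 units at day 7 against 14592 in progenitors. Chil3, a chitinase-like gene also expressed by granulocyte precursors, read 85765 units at day 10 against 29255 at day 7, with a log2 ratio of 1.55, or -0.31 once the arrays were quantile normalized. With TNF against day 10, Mrc1 was 3.32-fold lower and Ccl22 2.91-fold higher.

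Inflammatory cytokine genes, often read with Nos2 and Ptgs2, were higher with TNF than at day 10 for 5 of 13 and lower for 2, where 8.84% and 8.76% of all genes were. With both arrays floored at 428 units, 2 of 7 were higher and 2 lower, where 4.71% and 5.15% of 4308 genes were. Il1b was at least 5.03-fold higher, at 2153 units against 78, and like Acod1 exceeded 428 units on the TNF array and on no other. Il18 was at least 7.82-fold lower, at 319 units against 3349. Tnf itself read 418 units with TNF against 191 at day 10, both under 428 units.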
